A study of Danio rerio with 18 samples.

Results

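Mitosis is carried out by proteins that most cells make only while they divide, so the level of their messages in bulk RNA is commonly read as a sign of dividing cells. The 46 genes described here encode such proteins. They were listed by name, with no measured value in the rule, and 40 of the 46 had a microarray row that carries their symbol alone, among 19217 genes measured in that way. Of the others, tpx2 and prc1a had no such row and smc2, mad2l1, dlgap5 and spc24 stood only on rows shared with another gene, so these 6 are not analysed here. Cyclins with Cdk1, Polo-like and Aurora kinases drive cells into mitosis, kinetochores attach chromosomes to the spindle under a checkpoint, the anaphase-promoting complex then releases them, and the central spindle guides the cell to split. The roles given below are known mainly from human and other vertebrate cells.

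The arrays hold RNA of cells sorted from pools of 3 dpf (days post fertilization) zebrafish embryos of the AB strain. All embryos carried 2 transgenes, Runx1+23:GFP, in which an enhancer of the runx1 gene drives green fluorescence in hematopoietic stem and progenitor cells (HSPC), and kdrl:DsRed2, in which the promoter of an endothelial receptor gene drives red fluorescence. From 2 to 3 dpf they stood in 75 µM Lycorine, an Amaryllidaceae alkaloid known to inhibit protein synthesis, with 1% DMSO as solvent, or in 1% DMSO alone. Each of the 6 groups (Runx+, kdrl+ and negative cells under either treatment) had 3 arrays, numbered 1, 2 and 3 and labelled biological replicates. Whether the 3 numbers stand for separate pools is not stated, so the p-values measure the spread between these samples, which may in part be technical.

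Values are log2 intensities, and a difference of 1 is a doubling. On all 18 arrays they ran from 1.53 to 13.32, with array medians between 4.87 and 5.12. The kdrl+ cells carried the endothelial markers: the score of 10 such genes (how far, in log2 units, they lay on average from their own 18-array means) was 1.9 to 2.88 on the 6 kdrl+ arrays and at most -0.74 on the other arrays. The Runx+ cells were less clearly marked. Their runx1 level differed from that of negative cells by 0.24 ± 0.21 in DMSO (limma adjusted p = 0.697), itga2b by 2.18 ± 0.39 (adjusted p = 0.0773), and the HSPC score of 9 genes was higher on every kdrl+ array (0.27 to 1.09) than on any Runx+ array (-0.72 to 0.21). Yet in DMSO the means of itga2b (6.68 and 5.43) and meis1b (9.01 and 8.28) were higher in Runx+ than in kdrl+ cells. Those of runx1, myb, gata2b, gfi1aa, lmo2, tal1 and ptprc were lower. The kdrl+ cells also held more message of some myeloid markers: of 8 such genes 4 were called higher than in negative cells in DMSO and 5 under Lycorine. The score of all 8 was 1.07, 0.99 and 1.43 in DMSO and 0.95, 0.75 and 0.5 under Lycorine on the kdrl+ arrays. It was -0.1, 0.08 and -0.54 and -0.38, -0.66 and -0.68 on the negative arrays, and -0.18, -0.99 and 0.76 and -1.08, -0.88 and -1.04 on the Runx+ arrays. The list was split. In DMSO the means of mpx, lyz, spi1b, lcp1 and coro1a were higher in kdrl+ than in negative cells. Those of mpeg1.1 (4.9 and 5.21), marco (4.91 and 5.12) and csf1ra (5.54 and 5.79) were lower. Of the neural markers, 7 of 8 were called lower in kdrl+ than in negative cells under either treatment. Between these 2 sorts 10.5% of all genes were called in DMSO and 13% under Lycorine, in either direction. The part of cells with these markers in the members' differences between sorts was not tested. A score of 6 measured liver, pancreas and gut genes stood at 2.67, 1.92 and 2.15 on the DMSO arrays numbered 2 (negative, Runx+ and kdrl+) and at 1.13 on DMSO Runx+ array 3, with no other array above 0.11. The score of 8 erythroid genes was 2.02 on DMSO negative array 1 and 1.32 on DMSO kdrl+ array 1, with no other array above 0.61. The part of such cells in the members' levels was not tested. Arrays within a group correlated at 0.872 to 0.962 in DMSO and at 0.961 to 0.984 under Lycorine.

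As a set, the mitosis genes were lowest in Runx+ cells of DMSO embryos and highest in kdrl+ cells of Lycorine embryos. The mean of the 40 members, each set against its own mean over 18 arrays, was -0.22, -0.63 and -0.37 on the DMSO Runx+ arrays and 0.36, 0.33 and 0.37 on the Lycorine kdrl+ arrays. Negative cells read 0.06, -0.29 and 0.1 in DMSO and 0.16, -0.17 and 0.1 under Lycorine. Runx+ cells under Lycorine read 0.28, 0.04 and -0.23. In DMSO the kdrl+ arrays were far apart, at 0.19, -0.51 and 0.41, so that they spanned nearly the whole range of the series. By group mean, 29 of the 40 members were highest in Lycorine kdrl+ cells, where 17.7% of all genes were highest, and 8 were highest in DMSO kdrl+ cells (19.3% of all genes). For 32 members the lowest mean lay in DMSO Runx+ cells, against 14.5% of all genes. In bulk samples like these, fewer dividing cells and less message per dividing cell cannot be told apart.

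**Figure D1:**
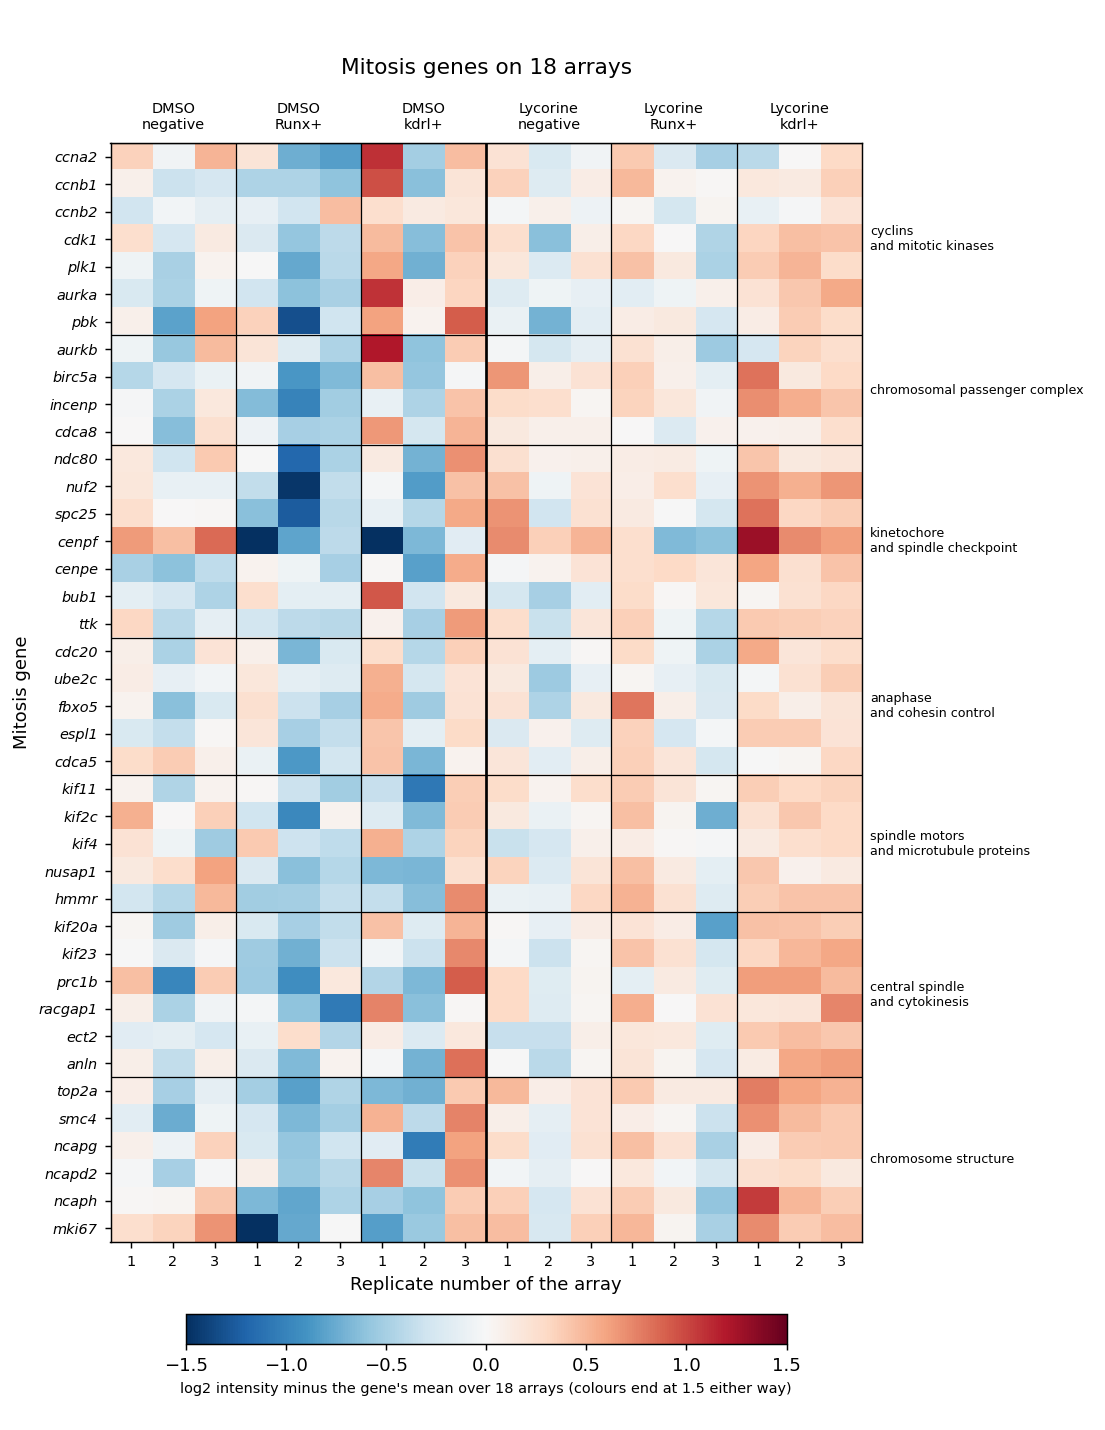
Level of each measured mitosis gene (rows, by role) on each of 18 arrays (columns, 3 per group), as log2 intensity minus the gene's mean over all arrays. The 3 Lycorine kdrl+ arrays are red for most genes, the 3 DMSO Runx+ arrays mostly blue, and DMSO kdrl+ array 2 holds the lowest value of its group for 38 of 40 members.

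In 5 of the 6 groups a single array held the lowest value of more than 20 members. DMSO array 2 held the group's lowest value for 31 members in negative cells, 26 in Runx+ cells and 38 in kdrl+ cells, where it held the lowest value of 48.2%, 31.9% and 40.1% of all genes. These are the arrays with the high liver, pancreas and gut scores given above, and the part of that RNA in the members' low values was not tested. Lycorine negative array 2 held the lowest value of 33 members (47.9% of all genes) and Lycorine Runx+ array 3 that of 33 as well (46.8%), with that score at -0.41 and -0.06. In Lycorine kdrl+ cells the lowest values were divided, with 18, 11 and 11 members on arrays 1, 2 and 3. The members' spread followed the same groups. For negative, Runx+ and kdrl+ cells in turn, their median SD was 0.27, 0.35 and 0.58 in DMSO and 0.22, 0.25 and 0.14 under Lycorine. All genes had 0.3, 0.36 and 0.38 in DMSO and 0.2, 0.24 and 0.19 under Lycorine. For 39 of the 40 members the SD was smaller in Lycorine kdrl+ than in DMSO kdrl+ cells, ccnb2 being the exception.

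**Figure D2:**
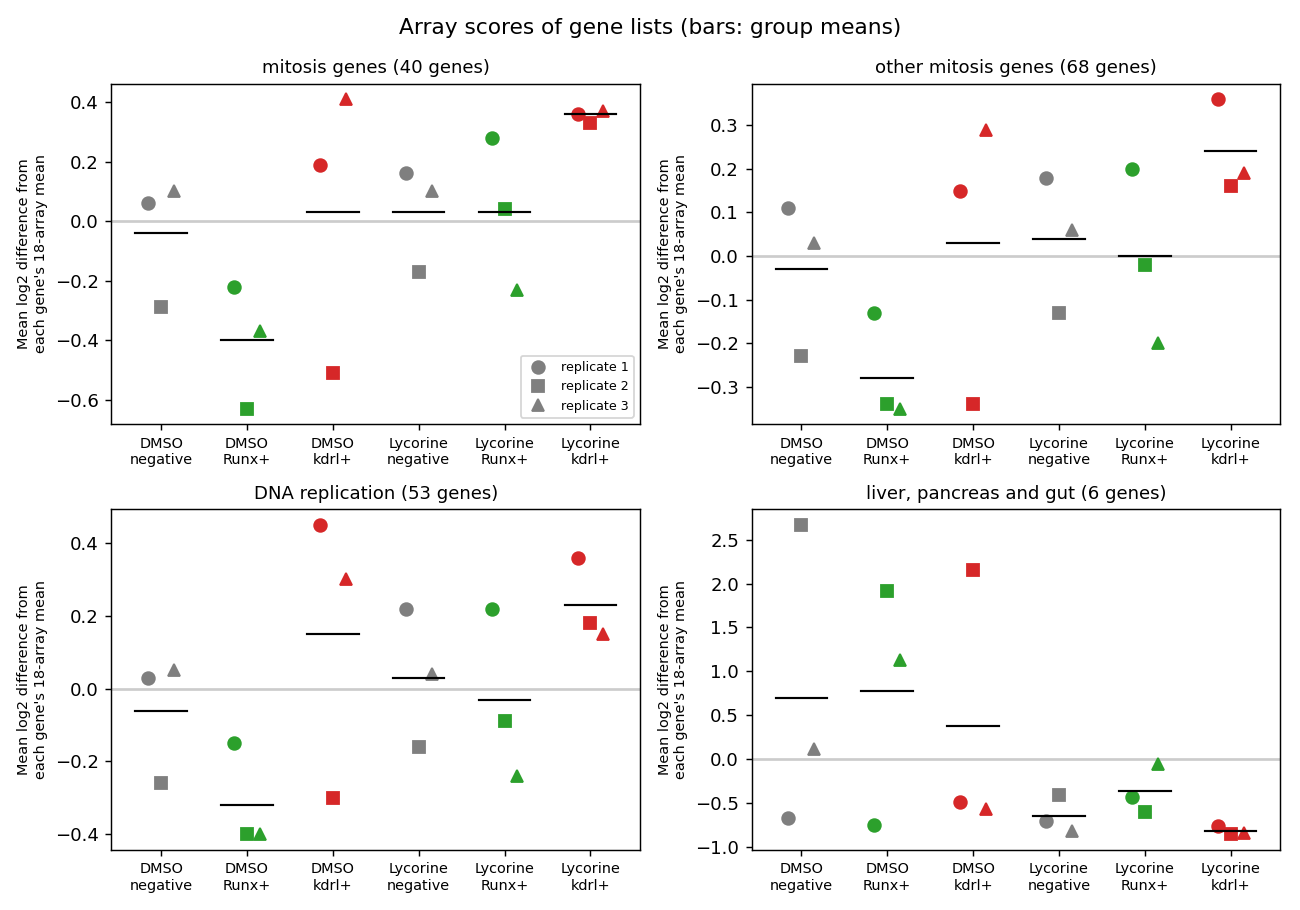
Score of each array (mean log2 difference from each gene's 18-array mean, vertical axis) for the mitosis genes and 3 other lists, by group, with symbols for replicate number and bars for group means. The DMSO arrays numbered 2 (squares) are low for mitosis and DNA replication genes and high, at 1.92 to 2.67, for liver, pancreas and gut genes, while the Lycorine kdrl+ arrays lie within 0.33 to 0.37 for the mitosis genes.

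The cyclins and mitotic kinases open mitosis. In the order negative, Runx+ and kdrl+ cells, each with arrays 1, 2 and 3, ccnb1, the B-type cyclin that activates Cdk1, measured 7.87, 7.47 and 7.54, 7.33, 7.33 and 7.19, and 8.76, 7.17 and 7.98 in DMSO. Under Lycorine it measured 8.14, 7.6 and 7.9, 8.28, 7.85 and 7.81, and 7.95, 7.93 and 8.15. All 3 Runx+ arrays were thus lower in DMSO than under Lycorine, and the DMSO kdrl+ group held both the highest and the lowest value of ccnb1 among 18 arrays. A like spread was seen for ccna2, the cyclin of S phase and mitotic entry, at 8.94, 7.33 and 8.31 in DMSO kdrl+ cells against 7.44, 7.85 and 8.14 in Lycorine kdrl+ cells. Its other levels were 8.19, 7.79 and 8.35 in negative and 8.04, 7.11 and 7.02 in Runx+ cells of DMSO embryos, and 8.06, 7.61 and 7.79 and 8.24, 7.63 and 7.34 in those of Lycorine embryos. For cdk1, the kinase itself, DMSO levels were 7.86, 7.36 and 7.74 in negative, 7.39, 7.03 and 7.22 in Runx+ and 8.08, 6.97 and 8.04 in kdrl+ cells. With Lycorine its levels were 7.86, 6.98 and 7.7, 7.92, 7.62 and 7.16, and 7.93, 8.06 and 8.04, the kdrl+ arrays lying above every negative and Runx+ array. The Polo-like kinase gene plk1 read 8.51, 8.08 and 8.62 in negative, 8.56, 7.8 and 8.17 in Runx+ and 9.15, 7.85 and 8.92 in kdrl+ cells in DMSO, and 8.74, 8.36 and 8.8, 9.01, 8.72 and 8.1, and 8.95, 9.08 and 8.85 under Lycorine. Its group means stayed within 8.18 and 8.96.

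Of this group, aurka, the Aurora kinase of centrosomes and spindle poles, differed most clearly between sorts. In DMSO it measured 6.83, 6.59 and 6.99 in negative cells, 6.77, 6.44 and 6.57 in Runx+ cells and 8.14, 7.16 and 7.38 in kdrl+ cells. Every kdrl+ array lay above every other DMSO array. Under Lycorine the levels were 6.87, 6.99 and 6.94, 6.9, 6.99 and 7.14 and 7.28, 7.46 and 7.63, again with no overlap between kdrl+ cells and the others. The cyclin gene ccnb2 varied least of all members, over 0.76 log2 units on 18 arrays, and pbk, a kinase active in mitosis, had a wide spread in DMSO negative (SD 0.71) and Runx+ cells (SD 0.83).

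The chromosomal passenger complex joins Aurora B kinase to centromeres and later to the central spindle. Its kinase gene aurkb measured 8.02, 7.52 and 8.56 in negative, 8.28, 7.89 and 7.62 in Runx+ and 9.29, 7.48 and 8.47 in kdrl+ cells of DMSO embryos. Under Lycorine it read 8.06, 7.82 and 7.95, 8.32, 8.17 and 7.54 and 7.83, 8.42 and 8.34. All 6 groups overlapped, and the SD of aurkb in DMSO kdrl+ cells, 0.91, was the largest of any member in any group. The scaffold gene incenp was steadier, at 7.52, 7.16 and 7.64 in DMSO Runx+ cells and 8.5, 8.33 and 8.11 in Lycorine Runx+ cells, with no overlap. Its other levels were 8.15, 7.69 and 8.32 and 8.06, 7.7 and 8.59 in negative and kdrl+ cells in DMSO, and 8.44, 8.42 and 8.2 and 8.86, 8.71 and 8.58 with Lycorine. For birc5a, which encodes Survivin, DMSO levels were 5.86, 6.03 and 6.19 in negative, 6.23, 5.41 and 5.62 in Runx+ and 6.73, 5.71 and 6.27 in kdrl+ cells. All of its Lycorine negative values (6.95, 6.37 and 6.5) exceeded the DMSO negative values, while Lycorine Runx+ (6.64, 6.36 and 6.14) and kdrl+ values (7.1, 6.43 and 6.58) overlapped those in DMSO. The means of cdca8, the Borealin gene, lay between 6.12 in DMSO Runx+ and 6.77 in DMSO kdrl+ cells.

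At the kinetochore, cenpf (CENPF in the array annotation), a coiled-coil protein that gathers there in early mitosis, had the widest range of all members, 2.85 log2 units. It measured 7.28, 7.09 and 7.49 in DMSO negative cells, but 5.07, 5.84 and 6.24 in DMSO Runx+ and 5.11, 5.96 and 6.47 in DMSO kdrl+ cells. Under Lycorine the levels were 7.35, 6.99 and 7.15 in negative, 6.89, 5.97 and 6.02 in Runx+ and 7.92, 7.35 and 7.25 in kdrl+ cells. Hence DMSO kdrl+ cells lay with the Runx+ cells, and Lycorine kdrl+ cells with the negative cells, without overlap in either case between kdrl+ and the group it stood apart from. The lowest values, 5.07 and 5.11, came from array 1 of DMSO Runx+ and kdrl+ cells. On these arrays the liver, pancreas and gut score was -0.75 and -0.49 and the erythroid score -0.42 and 1.32. The part of tissue makeup in these values was not tested. The Ndc80 complex, which binds spindle microtubules, was measured through ndc80, nuf2 and spc25. Of these, nuf2 read 7.77, 7.48 and 7.48 in negative, 7.23, 6.14 and 7.23 in Runx+ and 7.57, 6.76 and 8.03 in kdrl+ cells in DMSO, and 8.03, 7.53 and 7.8, 7.7, 7.85 and 7.47 and 8.27, 8.13 and 8.26 under Lycorine. In Runx+ and in kdrl+ cells its 3 Lycorine arrays lay above the 3 DMSO arrays. The checkpoint kinase genes bub1 and ttk had group means of 6.51 to 7.09 and 6.82 to 7.55, and cenpe, the kinetochore motor, had 7.13 to 8.04.

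The anaphase-promoting complex marks cyclins and the guard of separase for destruction, so that sister chromosomes part. The activator gene cdc20 measured 7.47, 6.9 and 7.58 in negative, 7.45, 6.69 and 7.15 in Runx+ and 7.64, 6.95 and 7.73 in kdrl+ cells in DMSO. With Lycorine it stood at 7.6, 7.23 and 7.39, 7.66, 7.31 and 6.9 and 7.95, 7.56 and 7.64. Levels of fbxo5, whose product Emi1 holds the complex inactive before mitosis, were 6.55, 5.87 and 6.27 in negative, 6.74, 6.18 and 6.0 in Runx+ and 7.05, 5.97 and 6.71 in kdrl+ cells of DMSO embryos. Under Lycorine they were 6.72, 6.04 and 6.64, 7.3, 6.58 and 6.28 and 6.78, 6.59 and 6.69, within the range of the DMSO arrays except for 7.3 on Runx+ array 1. The separase gene espl1 read 6.04, 5.92 and 6.29, 6.45, 5.78 and 5.92 and 6.69, 6.13 and 6.56 in DMSO, and 6.06, 6.34 and 6.08, 6.62, 6.02 and 6.24 and 6.66, 6.65 and 6.48 with Lycorine. Among the groups compared below, its arrays did not overlap between Lycorine negative and kdrl+ cells, and overlapped in all others. The ubiquitin-conjugating enzyme gene ube2c had means of 8.41 to 8.77, and the cohesin protector cdca5 (Sororin) of 7.4 to 8.06.

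Among the spindle motors and microtubule proteins, group means ran from 7.37 to 8.05 for kif11, which pushes spindle poles apart, and from 7.64 to 8.36 for kif2c, which shortens microtubules. They ran from 7.78 to 8.54 for nusap1 and from 6.19 to 7.06 for hmmr, both microtubule-binding, and from 6.37 to 6.78 for the chromosome motor kif4. In cytokinesis, kif23 and racgap1 form centralspindlin, ect2 activates RhoA at the cell equator and anln links the contractile ring. The level of ect2 was 7.19, 7.26 and 7.2 in Lycorine kdrl+ cells, above every other array of the series. Elsewhere it was 6.63, 6.65 and 6.55 in negative, 6.69, 7.07 and 6.36 in Runx+ and 6.91, 6.59 and 6.96 in kdrl+ cells in DMSO, and 6.46, 6.45 and 6.89 and 6.97, 6.96 and 6.62 in negative and Runx+ cells with Lycorine. Means of the other members of this group went from 6.32 to 7.31 for kif23, 6.21 to 7.13 for racgap1, 5.85 to 6.87 for the microtubule bundler prc1b, 6.92 to 7.7 for the motor kif20a and 7.33 to 8.05 for anln.

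Chromosome structure was represented by top2a, which untangles DNA, the condensin genes smc4, ncapg, ncapd2 and ncaph, and mki67. For top2a, DMSO levels were 8.11, 7.51 and 7.87 in negative, 7.5, 7.2 and 7.56 in Runx+ and 7.34, 7.29 and 8.4 in kdrl+ cells. Lycorine levels were 8.5, 8.11 and 8.21, 8.4, 8.14 and 8.14 and 8.78, 8.6 and 8.53, so that every Lycorine array lay above every DMSO array of the same sort, in negative cells by less than the rounding. The widely used proliferation marker mki67 (MKI67 in the annotation), whose product Ki-67 coats mitotic chromosomes, measured 9.41, 9.49 and 9.83 in negative, 7.4, 8.39 and 9.15 in Runx+ and 8.33, 8.6 and 9.6 in kdrl+ cells in DMSO. With Lycorine it measured 9.62, 8.91 and 9.51, 9.65, 9.19 and 8.67 and 9.86, 9.54 and 9.62. Its lowest values, like those of cenpf, came from array 1 of DMSO Runx+ and kdrl+ cells, on which ccna2 and aurkb had the highest value of their group. On DMSO kdrl+ array 1 the roles thus parted, with a score of 0.72 for cyclins and kinases and 0.55 for the passenger complex, but -0.21 for spindle proteins and -0.15 for chromosome structure. Condensin means ranged from 5.8 to 7.08 for ncaph, 7.11 to 8.1 for smc4, 6.88 to 7.54 for ncapd2 and 7.64 to 8.31 for ncapg.

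**Figure D3:**
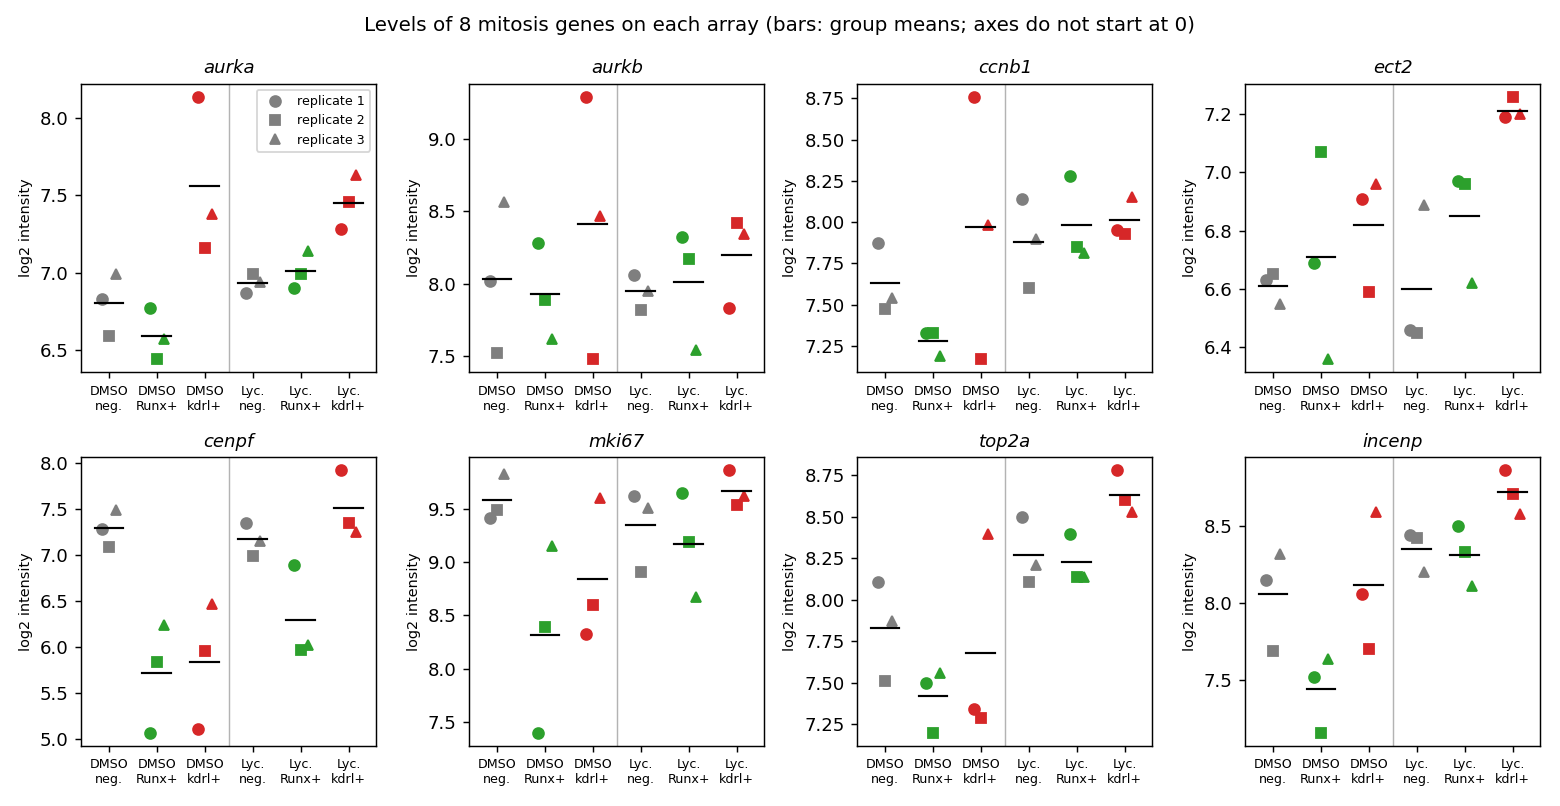
Log2 intensity (vertical axes, not starting at 0) of 8 mitosis genes on each array, by group, with symbols for replicate number and bars for group means. The kdrl+ arrays lie above the others for aurka under both treatments, and cenpf is low in DMSO kdrl+ cells (5.11 to 6.47) but high in Lycorine kdrl+ cells (7.25 to 7.92).

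All comparisons below come from a single limma fit of the 6 groups, 2-sided, with p-values adjusted by Benjamini-Hochberg over all 19217 genes, a threshold of 0.05 and n = 3 arrays per group. Differences are on the log2 scale, with their standard error (SE). Contrasts that use the same group share its arrays and are not independent. Members tended to be low or high together on an array, so a count of members is not a count of replicates. Counts from fits with fewer arrays or other settings mostly stand without the share of all genes called in that fit. Such counts therefore do not single out the members.

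The first question is whether the sorted cell types differ in mitosis genes in control embryos. In DMSO, kdrl+ cells had more aurka and less cenpf than negative cells. The difference of aurka was 0.75 ± 0.23, adjusted p = 0.0407 (1.69-fold), and that of cenpf was -1.44 ± 0.35, adjusted p = 0.0129 (2.72-fold lower). These were the only members among 40 past the threshold, while 10.5% of all genes passed in this comparison. Of the rest, nusap1 came next, at -0.71 ± 0.26, adjusted p = 0.0877. By role, all 7 cyclins and kinases and all 4 passenger genes had differences above 0 (medians 0.34 and 0.3), and 4 of 5 spindle and 4 of 6 chromosome genes had differences below 0 (medians -0.24 and -0.23). Over the 40 members the median was 0.16, against -0.05 for all genes, with 3 members higher and 2 lower at an unadjusted p below 0.05 (9.41% and 13.9% of all genes). Arrays did not overlap for aurka and ccnb2, which were higher, and cenpf, which was lower (8.81% and 11.8% of all genes). Neither call held without DMSO kdrl+ array 1 or DMSO negative array 3; that of aurka was also lost without kdrl+ array 3 or negative array 1 or 2, and without the low kdrl+ array 2, 6 members passed, adding cenpe, bub1, smc4 and ncapd2. Both calls were also lost when only the 6 arrays compared were fitted. With the mean over all rows of a gene, racgap1, which had 3 rows, passed as well (0.74, adjusted p = 0.0456). On the row used here, its means were 6.81 in kdrl+ and 6.62 in negative cells. The median of 0.16 was 0.00 without kdrl+ array 3, 0.02 without kdrl+ array 1, 0.01 without negative array 2 and 0.41 without kdrl+ array 2.

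Runx+ cells in DMSO had less aurka than kdrl+ cells, by -0.96 ± 0.23, adjusted p = 0.0126, or 1.95-fold. It was the one member past the threshold, where 8.44% of all genes passed. Below it stood smc4, at -0.77 ± 0.27, adjusted p = 0.0859, and incenp, at -0.68 ± 0.24, adjusted p = 0.0884. With the replicate number as a block shared by all 6 groups, smc4 passed too (adjusted p = 0.0499), making 2. After each gene's group mean was subtracted, same-number arrays of Runx+ and kdrl+ cells in DMSO correlated at 0.42, 0.33 and 0.36. The set leaned one way: 39 of 40 differences were below 0, kif11 at 0.07 being the exception, with a median of -0.42 against 0.02 for all genes. Its scores overlapped even so, at -0.22, -0.63 and -0.37 on the Runx+ arrays and 0.19, -0.51 and 0.41 on the kdrl+ arrays. At an unadjusted p below 0.05, 11 members were lower (9.4% of all genes), and aurka, incenp, kif23 and kif20a did not overlap (7.99%). The call of aurka was lost without DMSO Runx+ array 2; without DMSO kdrl+ array 2, 9 members passed, and without DMSO Runx+ array 1, 2 did. It was also lost with only the 6 arrays compared in the fit. The median moved to -0.68 without DMSO kdrl+ array 2 and to -0.28 without kdrl+ array 3. Markers of other cells differed in the same comparison: 6 of 8 neural genes were called higher in Runx+ cells (median difference 1.26), all 8 muscle and all 8 retina and lens genes had differences above 0 (1 called in each, both medians 1.03), and 4 of 8 myeloid genes were called lower (median -1.30). Neural scores were 0.38, -0.36 and -0.35 in Runx+ and -0.73, -1.51 and -2.26 in kdrl+ cells, muscle scores 0.91, 0.93 and 1.6 and 1.2, -0.33 and -0.67, and their part in the members' differences was not tested.

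Against negative cells, Runx+ cells in DMSO had lower levels of most members, none past the threshold. The nearest were cenpf, at -1.57 ± 0.35, adjusted p = 0.106, mki67, at -1.26 ± 0.39, adjusted p = 0.206, and nusap1, at -0.77 ± 0.26, adjusted p = 0.236. Of all genes 0.0052% passed, a single gene, so the count of 0 says little of the members. Differences lay below 0 for 34 members, with a median of -0.32 against -0.02 for all genes. At an unadjusted p below 0.05, 9 members were lower, where 6.97% of all genes were, and 11 did not overlap (6.15%). The 95% interval reached below -1 for 17 of 40 members, so that differences as large as 2-fold lie within the error for these. Without DMSO negative array 2, cenpf passed, at -1.67 (adjusted p = 0.0361). The median was -0.46 without that array, -0.17 without negative array 3, -0.21 without negative array 1 and -0.15 without Runx+ array 2.

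**Figure D4:**
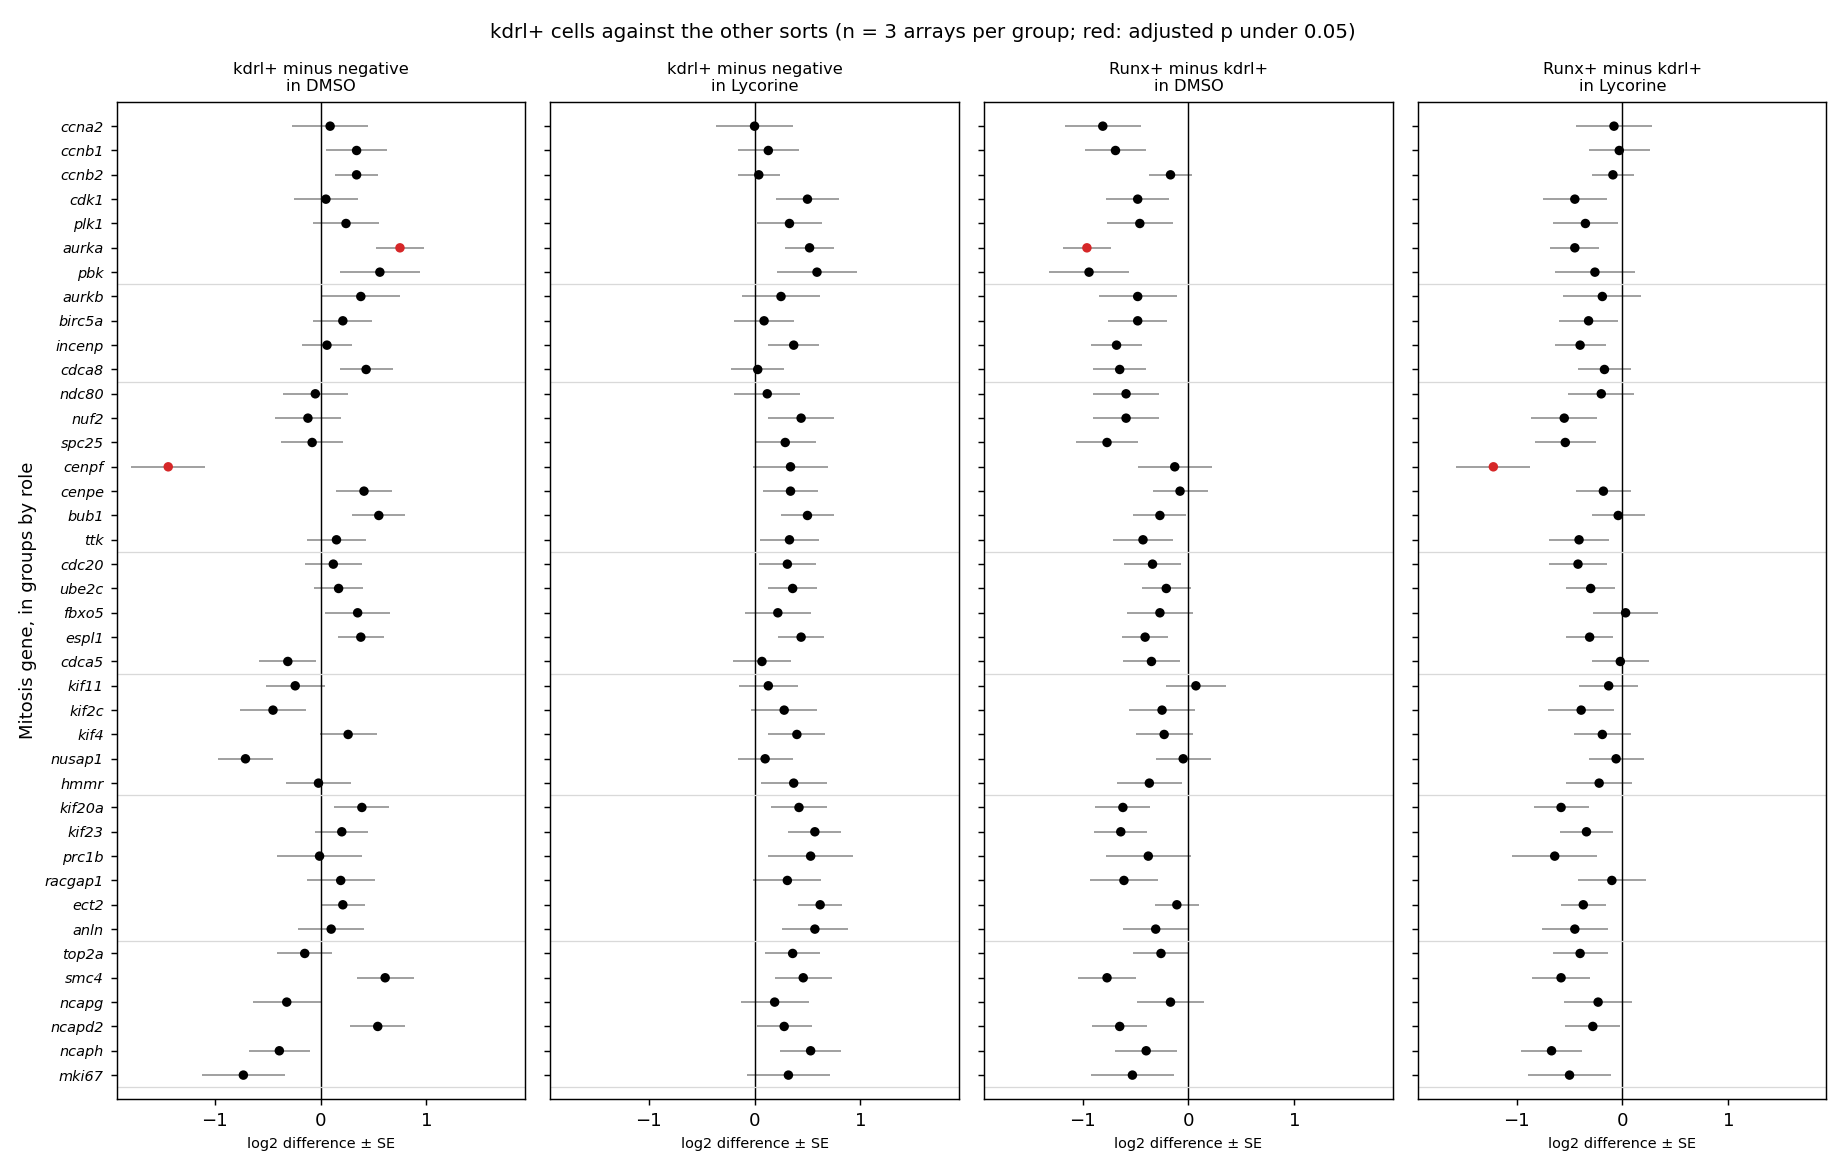
Difference of each mitosis gene between kdrl+ cells and negative or Runx+ cells, in DMSO and under Lycorine (log2 scale, horizontal axes, point and SE, n = 3 arrays per group, red where the adjusted p is below 0.05). Under Lycorine nearly all points lie on 1 side of 0, as do those of Runx+ minus kdrl+ cells in DMSO. The kdrl+ minus negative differences of spindle and chromosome genes in DMSO fall on both sides.

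The second question is what Lycorine did to mitosis genes in each sort. None of the 40 members passed the threshold in any sort, and no member that stood at an unadjusted p below 0.05 was lower with Lycorine. In kdrl+ cells the largest difference was that of cenpf, 1.66 ± 0.35, adjusted p = 0.113 (3.16-fold), followed by top2a, 0.96 ± 0.26, adjusted p = 0.218, and ncaph, 0.88 ± 0.29, adjusted p = 0.323. For all genes the adjusted test called 0.052%. At an unadjusted p below 0.05, 8 members were higher, against 5.48% of all genes, and cenpf, top2a, nuf2 and ect2 did not overlap (5.66%). By role the differences split. Cyclins and kinases had a median of -0.1, with 3 of 7 above 0, whereas chromosome structure had 0.66, spindle proteins 0.5 and the kinetochore group 0.49. On the DMSO kdrl+ arrays, scores were 0.72, -0.31 and 0.4 for cyclins and kinases and -0.15, -0.61 and 0.54 for chromosome structure. Under Lycorine they were 0.1, 0.27 and 0.35 and 0.59, 0.43 and 0.38. In DMSO these roles parted most on array 1, so the split leaned on that array.

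The kdrl+ median depended on 1 control array. Over all 40 members the median was 0.31 (all genes -0.06), with 32 above 0 (43.6% of all genes), and without DMSO kdrl+ array 2 the median was -0.00. Conversely, without DMSO kdrl+ array 3, whose mitosis score of 0.41 was the highest of the series, the median was 0.47 and 4 members passed: cenpf at 1.97, top2a at 1.32, ncaph at 1.19 and kif11 at 1.04. As for a fall with Lycorine, 2 of 40 members had a 95% interval that reached below -1, the lowest bound being -1.15, while 16 had one that reached above 1. These intervals use 1 variance per gene pooled over 6 groups. The members' median SD was 0.58 in DMSO kdrl+ cells and 0.14 to 0.35 in the other groups. The intervals may thus be too narrow here, and a 2-fold fall is not excluded for the other members. Markers of other tissues differed beside the members. The score of 8 muscle genes (of 8 listed) was 1.2, -0.33 and -0.67 in DMSO and -0.99, -1.28 and -1.41 under Lycorine, and that of 8 neural genes (of 9) -0.73, -1.51 and -2.26 and -0.68, -1.09 and -0.1; their part in the members' differences was not tested.

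In Runx+ cells, 38 of 40 members were higher with Lycorine by their difference (44.9% of all genes), with a median of 0.42 against -0.04 for all genes. The scores of the set overlapped even so, with -0.23 on Lycorine Runx+ array 3 and -0.22 on DMSO Runx+ array 1. Nearest to the threshold were incenp, 0.87 ± 0.24, adjusted p = 0.177, top2a, 0.81 ± 0.26, adjusted p = 0.201, and nuf2, 0.81 ± 0.31, adjusted p = 0.267. No gene among all 19217 passed (0%), so the adjusted test gave no call to any gene here. An unadjusted p below 0.05 was reached by 11 members, all higher, compared with 5.31% of all genes. For 12 members, among them ccnb1, kif23, racgap1, spc25, nusap1, hmmr, kif11, cenpe and aurka, the 3 Lycorine arrays lay above the 3 DMSO arrays (6.67% of all genes). All role groups had positive medians, from 0.24 for anaphase and cohesin control to 0.57 for the kinetochore. No interval reached below -1, the lowest bound being -0.7, and 22 reached above 1. Leaving out any 1 array of this comparison gave medians of 0.31 to 0.56 and no call, and omitting all 3 DMSO arrays numbered 2 gave 0.31. With array weights, which count less consistent arrays less, 949 of all genes passed, and with them 5 members, all higher: incenp (adjusted p = 0.0167), nuf2 (adjusted p = 0.0257), top2a (adjusted p = 0.0297), kif23 (adjusted p = 0.0317) and ndc80 (adjusted p = 0.0429). Muscle scores were 0.91, 0.93 and 1.6 in DMSO and 0.79, 0.36 and -0.62 under Lycorine, neural scores 0.38, -0.36 and -0.35 and 0.61, 0.78 and 0.48, and liver, pancreas and gut scores -0.75, 1.92 and 1.13 and -0.44, -0.61 and -0.06; the part of tissue makeup in the difference was not tested.

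Negative cells showed the least. Their median was 0.1, against -0.08 for all genes, with 23 members above 0 (39.3% of all genes). It turned to -0.04 without DMSO negative array 2, was 0.02 without Lycorine negative array 1 and reached 0.17 without DMSO negative array 3. The smallest p-values were those of cenpe, 0.57 ± 0.26, adjusted p = 0.73, birc5a, 0.58 ± 0.28, adjusted p = 0.742, and top2a, 0.44 ± 0.26, adjusted p = 0.77. Again no gene of the whole table passed (0%). Of the members, cenpe alone had an unadjusted p below 0.05 (1.97% of all genes were higher in this way), and these 3 did not overlap (5.13%). For 35 of 40 members the 95% interval lay within -1 and 1.

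**Figure D5:**
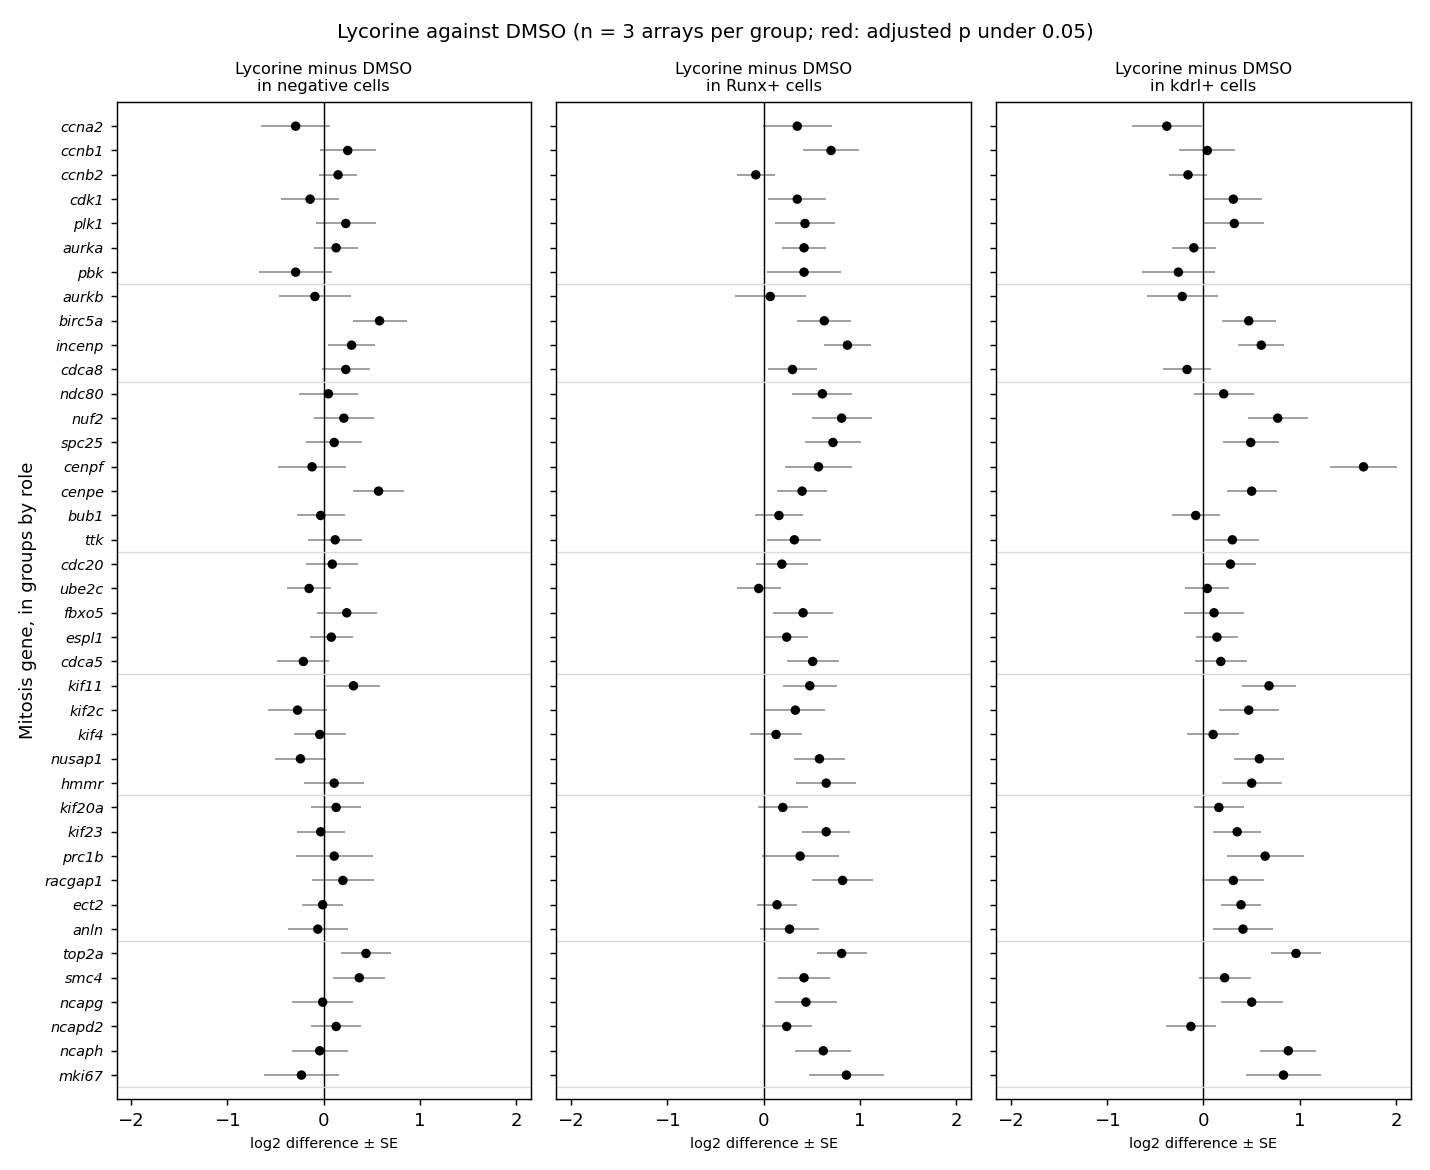
Difference of each mitosis gene between Lycorine and DMSO in negative, Runx+ and kdrl+ cells (log2 scale, horizontal axes, point and SE, n = 3 arrays per group, red where the adjusted p is below 0.05, which no gene reached). In Runx+ cells 38 of 40 points lie above 0, in kdrl+ cells 32 and in negative cells 23.

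Whether the response to Lycorine differed between sorts was tested as the difference of the effects. No member passed, and no gene of the table did in any of these tests (0%). Between kdrl+ and negative cells, the smallest p-values belonged to cenpf, at 1.78 ± 0.49, adjusted p = 0.999, nusap1, at 0.81 ± 0.36, adjusted p = 0.999, and ncaph, at 0.92 ± 0.41, adjusted p = 0.999. These 3 were the members with an unadjusted p below 0.05, as 1.85% of all genes were on the higher side. Between Runx+ and negative cells they were nusap1, 0.81 ± 0.36, adjusted p = 1.0, mki67, 1.08 ± 0.55, adjusted p = 1.0, and kif23, 0.68 ± 0.35, adjusted p = 1.0, and nusap1 alone had an unadjusted p below 0.05 (1.05%). Between Runx+ and kdrl+ cells they were cenpf, -1.09 ± 0.49, adjusted p = 0.983, aurka, 0.52 ± 0.32, adjusted p = 0.983, and ccnb1, 0.65 ± 0.41, adjusted p = 0.983, with cenpf alone below 0.05 unadjusted (2.66% of all genes lower). The intervals were wide. For kdrl+ against negative cells only 11 of 40 lay within -1 and 1, so differences between sorts were not resolved for most members.

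Under Lycorine the spread within groups was smaller. The fit pools both treatments into 1 variance per gene, so the SEs given here do not reflect that. Nearly all members were higher in kdrl+ than in negative cells by their difference, 39 of 40, with ccna2 at -0.00 and a median of 0.33 against -0.03 for all genes. None passed the threshold, although 13% of all genes did. Closest were ect2, 0.62 ± 0.21, adjusted p = 0.0591, aurka, 0.52 ± 0.23, adjusted p = 0.163, and kif23, 0.57 ± 0.25, adjusted p = 0.165, and these 3 had an unadjusted p below 0.05 (10.9% of all genes higher). For 23 members the 3 kdrl+ arrays lay above the 3 negative arrays, where 17.7% of all genes did so. They held 5 of 6 cytokinesis genes, 4 each of the 5 spindle, 6 chromosome, 7 kinetochore and 7 cyclin and kinase genes, incenp and espl1. When the 9 Lycorine arrays were fitted by themselves, a choice made after seeing the data, 5 members passed, all higher: ect2 (adjusted p = 0.0222), aurka, pbk, bub1 and prc1b. Without Lycorine negative array 3, ect2 passed in the fit of all groups.

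Runx+ cells under Lycorine had less cenpf than kdrl+ cells, by -1.22 ± 0.35, adjusted p = 0.0293, or 2.32-fold. No other member passed, and 12.8% of all genes did. Next stood ncaph, -0.67 ± 0.29, adjusted p = 0.152, and kif20a, -0.58 ± 0.26, adjusted p = 0.163. Differences lay below 0 for 39 members, with a median of -0.31 against 0.06 for all genes. Of the members 4 were lower at an unadjusted p below 0.05 (12% of all genes), and 13 did not overlap (18.1%). The call of cenpf was lost without Lycorine kdrl+ array 1 or 2 or Runx+ array 2 or 3. In the fit of the 9 Lycorine arrays alone, nuf2, prc1b and smc4 passed as well. The median was -0.18 without Lycorine Runx+ array 3.

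Between Runx+ and negative cells under Lycorine the members were evenly spread, with 20 above 0 and a median of -0.01 (all genes 0.01), which lay between -0.11 (without negative array 2) and 0.16 (without Runx+ array 3) when 1 array was left out. The smallest p-values were those of cenpf, -0.88 ± 0.35, adjusted p = 1.0, bub1, 0.46 ± 0.25, adjusted p = 1.0, and ect2, 0.25 ± 0.21, adjusted p = 1.0. None passed, and 0.0104% of all genes did. At an unadjusted p below 0.05, cenpf was lower (1.48% of all genes) and no member was higher (1.98%), and cenpf and cdca8 were lower without overlap (5.94%) and bub1 higher (7.49%). For 38 of 40 members the interval lay within -1 and 1.

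Other genes of the cell cycle were described beside the members. Of 86 further mitosis genes 68 were measured, of 60 DNA replication genes 53, of 39 cell cycle regulators 36 and of 18 inhibitors 15. The listed regulator cdc25a was matched to the row of cdc25b, which thus stands in both that list and the other mitosis genes. Lycorine gave no call in any of these lists in any sort. Of all genes 0% passed in Runx+ and in negative cells and 0.052% in kdrl+ cells, so the lack of calls says little of these lists. With Lycorine, median differences in Runx+ cells were 0.24 for the other mitosis genes, 0.27 for DNA replication and -0.4 for the inhibitors (all genes -0.04). In kdrl+ cells they were 0.14, 0.09 and -0.08 (all genes -0.06). In negative cells they were 0.04, 0.08 and -0.41 (all genes -0.08). The inhibitor gene cdkn1a, which encodes p21, differed by -0.61 ± 0.42 in Runx+ cells (adjusted p = 0.56). In kdrl+ cells it differed by -0.2 ± 0.42 (adjusted p = 0.886) and in negative cells by -0.76 ± 0.42 (adjusted p = 0.761). In Runx+, kdrl+ and negative cells in turn, foxm1, a transcription factor of mitosis genes, differed by 0.34 ± 0.22 (adjusted p = 0.526), 0.01 ± 0.22 (adjusted p = 0.99) and 0.22 ± 0.22 (adjusted p = 0.854). In the same order, the replication clamp gene pcna differed by 0.14 ± 0.26 (adjusted p = 0.857), -0.01 ± 0.26 (adjusted p = 0.993) and -0.11 ± 0.26 (adjusted p = 0.938).

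Between sorts a few of these genes passed, at shares mostly below that of all genes. For kdrl+ minus negative cells in DMSO they were 1 of the 68 other mitosis genes, 2 of 53 replication genes, 4 of 36 regulators and 0 of 15 inhibitors, where 10.5% of all genes passed. In DMSO, kdrl+ cells exceeded negative cells in the G1 kinase genes cdk4 (1.16 ± 0.23, adjusted p = 0.00356) and cdk6 (0.84 ± 0.26, adjusted p = 0.0477), the cyclin gene ccnd3 (0.66 ± 0.21, adjusted p = 0.0499), the replication genes mcm10 (0.96 ± 0.22, adjusted p = 0.0102) and pole2 (0.88 ± 0.27, adjusted p = 0.0471) and anapc1 (1.08 ± 0.28, adjusted p = 0.0222), a subunit of the anaphase-promoting complex. The transcription factor gene mybl1 was lower, by -0.89 ± 0.25, adjusted p = 0.0294. Between Runx+ and kdrl+ cells in DMSO, where 8.44% of all genes passed, 5 of 53 replication genes, 1 of 68 other mitosis genes and none of the regulators or inhibitors did. The Runx+ cells had less of 5 replication genes: orc6 (-1.19 ± 0.3, adjusted p = 0.0196), orc2 (-1.15 ± 0.35, adjusted p = 0.0492), pole2 (-0.97 ± 0.27, adjusted p = 0.033), wdhd1 (-0.75 ± 0.21, adjusted p = 0.0346) and orc1 (-0.7 ± 0.2, adjusted p = 0.0391), of which the orc genes encode parts of the origin recognition complex. The centriole kinase gene plk4 was lower too (-0.74 ± 0.22, adjusted p = 0.0445). The median of the DNA replication list was -0.49 in that comparison, with 48 of 53 below 0, beside -0.42 for the mitosis genes. Under Lycorine, 2 of 15 inhibitors and none of the other 3 lists passed between kdrl+ and negative cells (13% of all genes), and 1 of 68 other mitosis genes, 1 of 36 regulators, 1 of 15 inhibitors and 0 of 53 replication genes between Runx+ and kdrl+ cells (12.8%). The kdrl+ cells exceeded negative cells in the stress-induced inhibitor gene gadd45ab (1.45 ± 0.38, adjusted p = 0.017) and had less cdkn1ca (-0.87 ± 0.28, adjusted p = 0.0483), a p57-type inhibitor. Runx+ cells had less gadd45ab (-1.24 ± 0.38, adjusted p = 0.039) and kif20bb (-1.02 ± 0.32, adjusted p = 0.0422), a mitotic motor, than kdrl+ cells, and more mybl1 (0.78 ± 0.25, adjusted p = 0.0485).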

How the data were processed

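RNA of 18 sorted samples was amplified, biotin-labelled and hybridized, 1 array each. The deposited table holds log2 values for 65528 rows, which the authors made with oligo, RMA and limma per the submitters' processing notes, with no version given in the sources used here. RMA implies quantile normalization, so values show differences relative to other genes. Rows with 1 symbol (20806; 855 had several, 43867 none) were named by Entrez identifier (20323), symbol (424) or synonym (55) through RefSeq names of the assembly GRCz12tu, and 4 kept the array name. The row with the highest mean stood for a gene, as for 3 members with several rows. Group means were fitted with limma 3.58.1 in R 4.3.3 (lmFit, eBayes, 17.4 degrees of freedom, median SE 0.27, or 0.38 for differences of effects). The number of arrays limits the precision. The script was tested on simulated data with independent noise and planted changes larger than the members' differences. That test therefore does not bear on differences of the size given here. Other tools were Python 3.11.15, pandas 2.3.3 and matplotlib 3.10.9. Groups came from the sample titles.

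Members, lists and tests were chosen with earlier results of these data known. Named are up to 12 members past the threshold per contrast and direction, or the 3 with the smallest p where fewer than 3 passed. Array values are given for 12 preset members and for extremes of a role (aurka, ect2, nuf2, incenp). Alternatives were a replicate block, other samples in the fit, array weights, median centring, cyclic loess, a filter on dim genes, the mean of a gene's rows and leaving out arrays.

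Pairing was examined on the deviations of each array from the mean of its own group, over all genes, not on the levels themselves. These deviations of same-number arrays correlated above 0.1 in every pair for DMSO negative with DMSO kdrl+ (0.26, 0.39, 0.12), DMSO Runx+ with DMSO kdrl+ (0.42, 0.33, 0.36), Lycorine negative with Lycorine kdrl+ (0.24, 0.22, 0.42) and the 2 negative groups (0.28, 0.31, 0.15). DMSO kdrl+ with Lycorine negative cells, a pair not compared here, did so too (0.11, 0.32, 0.15). The labels do not say that a number pairs these groups. The correlations, also seen between treatments, do not settle it. The block, 1 effect per number shared by all 6 groups, moved a count of members called only between Runx+ and kdrl+ cells in DMSO, from 1 to 2. It ties the same numbers across treatments, where the deviations of Runx+ arrays (-0.01, -0.01, -0.09) and of kdrl+ arrays (0.07, -0.03, -0.11) hardly correlated. A block within each treatment was not fitted, so the effect of such a pairing on the calls was not tested.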

Additional observations from a re-analysis of the deposited data

How the results depend on the processing

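Counts of members called (of 40, adjusted p below 0.05) depended on the processing. The difference of none of the 3 members with the smallest p in each comparison changed its sign. These members were picked by their p in the same data, so this says nothing of the others. When 1 array was left out, the median of the 40 members fell as low as -0.0 for Lycorine in kdrl+ cells and -0.04 in negative cells. For kdrl+ minus negative cells in DMSO (2 called) the count was 0 with only the arrays compared, 1 with array weights, 4 with cyclic loess and 4 without the 3 DMSO arrays numbered 2. The mean over a gene's rows added racgap1 there. For Runx+ minus kdrl+ cells in DMSO (1 called) it was 2 with the replicate block, 0 with only the arrays compared, 3 with median centring, 6 with cyclic loess and 5 without the DMSO arrays numbered 2. For kdrl+ minus negative cells under Lycorine (0 called) it was 6 with only the arrays compared, 6 with array weights, 1 with median centring (ect2), 1 with cyclic loess (ect2) and 5 with only the 9 Lycorine arrays. For Runx+ minus kdrl+ cells under Lycorine (1 called) it was 4 with only the arrays compared, 4 with array weights and 4 with only the 9 Lycorine arrays. For Lycorine minus DMSO in Runx+ cells (0 called) array weights gave 5, namely incenp, top2a, nuf2, kif23 and ndc80, all higher. The cause of these moves was not tested. Apart from array weights in Runx+ cells, the number of all genes called in these fits is not given. A change of a count is thus not a result about the members alone. The last 2 choices of samples, those leaving out DMSO arrays numbered 2 or keeping only the Lycorine arrays, were made after seeing the data.

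Leaving out 1 array at a time gave 0 to 6 members for kdrl+ minus negative and 0 to 9 for Runx+ minus kdrl+ cells in DMSO, 0 to 1 for Runx+ minus negative cells in DMSO, 0 to 4 for Lycorine in kdrl+ cells, 0 to 1 for kdrl+ minus negative and 0 to 1 for Runx+ minus kdrl+ cells under Lycorine, and 0 in the other comparisons. In all, 153 of 186 recomputed counts stayed within 1.5 times the main count and 33 did not. A count of 0 that stayed at 0 is among the 153, also where no gene of the whole table passed. Of the recomputed tests of those single members, 514 stayed on their side of the threshold, 28 newly passed and 16 no longer did. The replicate block changed no other call than that of smc4. Spread in DMSO exceeded that under Lycorine, and the fit pools both into 1 variance per gene. For the members the median SD was largest in DMSO kdrl+ cells, at 0.58, against 0.27 in DMSO negative and 0.35 in DMSO Runx+ cells. Errors of the members thus tend to be too small in comparisons with DMSO kdrl+ cells, that of Lycorine included. Between Lycorine sorts they tend to be too large.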
